A study of Mus musculus with 8 samples.

Results

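Rab GTPases are the small GTP-binding proteins that give the membranes of endosomes, secretory vesicles, the endoplasmic reticulum (ER) and the Golgi their identity, and the RNA of their genes was followed here in mouse myeloid progenitors. The members were the genes of the deposited count table whose symbol is Rab followed by a number and at most 1 letter and 1 more digit, with at least 100 counts summed over the 8 libraries. This rule kept 44 of 58 Rab symbols, among 33435 named genes in the table, and it used the summed counts but not the difference between the groups. Hematopoietic stem and progenitor cells (HSPCs) came from the livers of C57BL/6J fetuses at embryonic day 14.5, were infected with Trim27 virus or with a GFP control virus, and were then sorted as myeloid progenitors (MPs), with 4 libraries of polyadenylated RNA in each group. The series describes the Trim27 samples as overexpressing Trim27, a ubiquitin ligase of the tripartite motif family, and the controls as carrying an empty vector. All samples thus shared the strain, the fetal stage, viral infection and the sort, and the labels give neither the gate, nor the time after infection, nor whether the 4 samples of a group came from separate animals or cultures. The p-values below therefore speak of library-to-library spread alone, part of which may be technical. In bulk RNA, fewer cells of a kind and less RNA in each cell cannot be told apart.

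A Rab protein cycles between a GDP-bound form, held in the cytosol by GDP dissociation inhibitors, and a GTP-bound form on a membrane, where it recruits effectors such as tethers, motor adaptors and fusion factors. Exchange factors load GTP and thereby place the Rab on its membrane, GTPase-activating proteins end the active state, and a lipid (geranylgeranyl) group added by Rab geranylgeranyl transferase anchors the protein. Myeloid progenitors fill primary granules from the Golgi, and the release of such granules in mature myeloid cells, mast cells and platelets depends on Rab27 proteins and their effectors, while Rab32 and Rab38 serve the making of lysosome-related organelles.

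RefSeq promoters (build GRCm38.p6) were matched by symbol for 35 of the 44 members, with Rab1 of the table listed there as Rab1a, and the 250 bases before the first listed start were searched on both strands for short motifs. Rab2a, Rab4a, Rab18, Rab27b, Rab30, Rab36, Rab37, Rab38 and Rab44 were not matched. The E-box palindrome CACGTG was present in 4 of the 35 member promoters (11.4%) and in 6.05% of 27025 promoters of the same length. Those 4 promoters belong to Rab20, Rab5a and Rab23, whose RNA rose with Trim27 virus, and to Rab21, whose RNA did not pass the test, and they are shown because they share the E-box. Rab20, Rab5a and Rab23 were members only with their Trim27 counts, so the membership rule in part set their direction. Of all genes tested, 47.5% rose. The Rab5a window lies at chr17:53478984-53479233 on the plus strand, that of Rab20 at chr8:11478641-11478890 on the minus strand, that of Rab23 at chr1:33719646-33719895 on the plus strand and that of Rab21 at chr10:115315592-115315841 on the minus strand. Each is written 5′ to 3′ along the gene's own strand, ends at the base before the start, and has CACGTG in capitals.
Rab20: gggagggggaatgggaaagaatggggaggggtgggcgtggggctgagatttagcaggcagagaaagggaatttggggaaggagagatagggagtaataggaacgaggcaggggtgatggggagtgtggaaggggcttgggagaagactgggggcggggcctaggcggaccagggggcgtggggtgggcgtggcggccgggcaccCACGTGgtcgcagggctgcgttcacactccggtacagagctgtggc
Rab5a: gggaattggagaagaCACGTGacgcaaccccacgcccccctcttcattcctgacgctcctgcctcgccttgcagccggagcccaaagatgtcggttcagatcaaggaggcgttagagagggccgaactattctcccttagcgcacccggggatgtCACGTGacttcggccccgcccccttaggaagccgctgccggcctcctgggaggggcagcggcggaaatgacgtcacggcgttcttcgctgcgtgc
Rab23: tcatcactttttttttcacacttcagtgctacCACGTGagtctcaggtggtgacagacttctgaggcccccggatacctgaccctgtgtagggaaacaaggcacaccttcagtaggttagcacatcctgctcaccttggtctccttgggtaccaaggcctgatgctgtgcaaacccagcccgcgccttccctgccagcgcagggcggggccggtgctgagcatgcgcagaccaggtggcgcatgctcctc
Rab21: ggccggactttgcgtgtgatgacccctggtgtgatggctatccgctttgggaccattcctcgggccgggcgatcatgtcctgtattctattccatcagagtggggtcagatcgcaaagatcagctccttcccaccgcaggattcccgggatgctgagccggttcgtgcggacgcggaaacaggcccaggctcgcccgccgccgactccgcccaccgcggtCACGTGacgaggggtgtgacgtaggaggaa

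The CCAAT box, read as CCAAT or its complement ATTGG, was present in 17 member promoters (48.6%) against 34.5% of all promoters. It occurred in 10 of the 19 matched members that rose, in 4 of the 11 that fell and in 3 of the 5 that passed in neither direction. Some of those that rose, Rab8b among them, were members only with their Trim27 counts, so the membership rule in part set their direction. The paralogs Rab8a, which fell, and Rab8b, which rose, both hold it, and their windows, at chr8:72160950-72161199 on the plus strand and chr9:66919706-66919955 on the minus strand, are shown with the box in capitals to set side by side a pair whose RNA moved in opposite directions.
Rab8a: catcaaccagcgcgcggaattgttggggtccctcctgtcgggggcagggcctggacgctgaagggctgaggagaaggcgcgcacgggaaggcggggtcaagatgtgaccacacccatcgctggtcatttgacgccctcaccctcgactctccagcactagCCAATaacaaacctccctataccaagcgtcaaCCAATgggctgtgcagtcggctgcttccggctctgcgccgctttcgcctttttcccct
Rab8b: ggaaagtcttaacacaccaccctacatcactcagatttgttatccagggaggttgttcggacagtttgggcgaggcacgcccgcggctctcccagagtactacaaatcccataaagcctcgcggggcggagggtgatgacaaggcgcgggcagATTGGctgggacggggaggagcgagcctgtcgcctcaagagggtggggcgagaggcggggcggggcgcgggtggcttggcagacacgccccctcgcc

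The GATA motif AGATAA was found in 1 member promoter (2.86% against 10.3% of all), that of Rab34, and the ETS-type motif GAGGAA in 5 (14.3% against 23.1%), those of Rab32, Rab21, Rab2b, Rab12 and Rab6a. The palindrome TGACGTCA was found in 1 (2.86% against 1.62%), that of Rab5a. The member windows had a median GC content of 61.6% against 52% over all promoters, and a match is a description of the letters, not a binding site.

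Total counts were 9257889 to 10747794 per GFP library and 10551137 to 16366571 per Trim27 library, with 11131 to 11850 and 12962 to 13283 genes detected. Trim27 itself stood at 181 ± 8.52 CPM (counts relative to the TMM-scaled library size, mean ± SD, n = 4) in the GFP libraries and at 293 ± 18.4 CPM in the Trim27 libraries, with no overlap between the groups, in the direction the labels give. All 10 markers of the myeloid progenitor list were detected in both groups, and their summed level was 1641 to 1749 CPM in the GFP libraries and 1179.6 to 1343 CPM in the Trim27 libraries. Summed markers of other cell types were 1747 to 1797 and 1278 to 1454 CPM for the erythroid list, 66.6 to 161 and 41.1 to 56.2 CPM for the B cell list, and 1.2 to 1.7 and 15.1 to 17.6 CPM for the hepatocyte list, of which 6 genes, Alb among them, were at 0 in all libraries, and their part in the Rab results was not tested. By the test described below, 1 of the 10 myeloid progenitor markers rose (Spi1) and 8 fell. Of the 8 tested erythroid markers, 4 rose (Gata1, Alas2, Slc4a1 and Tfrc) and 4 fell, among them Klf1, from 911 to 502 CPM. B cell markers had 0 that rose and 6 that fell among 9 tested. All genes tested rose in 47.5% and fell in 38.0% of cases. Counts from 1 to 10 were even in 64.7% to 72% of cases per library, so that read pairs may have been counted as 2, and counting intervals, which cover counting error only, may be too narrow.

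Of the 44 Rab genes, 25 rose with Trim27 virus, 13 fell and 6 passed in neither direction (edgeR's quasi-likelihood test, Benjamini-Hochberg adjusted p under 0.05 over all 11040 genes tested, as for every adjusted p below). Over all genes tested, 47.5% were called higher and 38.0% lower with Trim27 virus, and 85.5% in either direction, so most expressed genes differed between these groups and a called Rab gene is no exception among them. The median log2 fold change was 0.24 over the Rab genes and 0.14 over all genes tested. At least 2-fold changes past the threshold numbered 16 upward and 6 downward, against 31.3% and 16.0% of all genes. The libraries of the groups did not overlap for 24 members that were higher and 13 that were lower with Trim27 virus (all genes 45.3% and 35.4%).

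All 44 members passed the filter on low counts. However, 12 of them (Rab20, Rab5a, Rab5b, Rab32, Rab3a, Rab8b, Rab19, Rab2b, Rab30, Rab36, Rab6b and Rab23) had fewer than 100 counts over the GFP libraries and were members only with their Trim27 counts, so that the membership rule in part set their direction, and all of these rose. Likewise 2 (Rab12 and Rab13) had fewer than that over the Trim27 libraries, and both fell. Among the 30 Rab genes with at least 100 counts in each group, 13 rose, 11 fell and 6 passed in neither direction, with a median log2 fold change of 0.105. All genes tested, without such a minimum in each group, rose in 47.5% and fell in 38.0% of cases. The TMM-scaled sizes of the Trim27 libraries were larger, so 100 counts over that group stood for a lower CPM than over the GFP group. The Rab symbols nearest the limit were Rab3a with 127 counts and Rab23 with 158 inside it, and Rab4b with 99 and Rab33b with 64 outside it. Another 8 Rab symbols, among them Rab25, Rab17 and Rab3c, had no count in any library, and Rab26, Rab33a, Rab3b and Rab39 had fewer than 10. The summed level of the members was 2044 ± 22 CPM in the GFP libraries and 2069.7 ± 23.2 CPM in the Trim27 libraries (SD, n = 4), and the ranges of the groups overlapped. As a share of all raw counts, without TMM scaling, the same genes took 0.183% to 0.185% of the GFP libraries and 0.223% to 0.235% of the Trim27 libraries, so whether the family's sum differed depended on the scaling. With library size as the only scaling, the median of all genes moved from 0.14 to 0.44 and the Rab calls became 31 upward and 11 downward, while all genes went from 5249 upward and 4193 downward to 6277 and 3106.

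**Figure D1:**
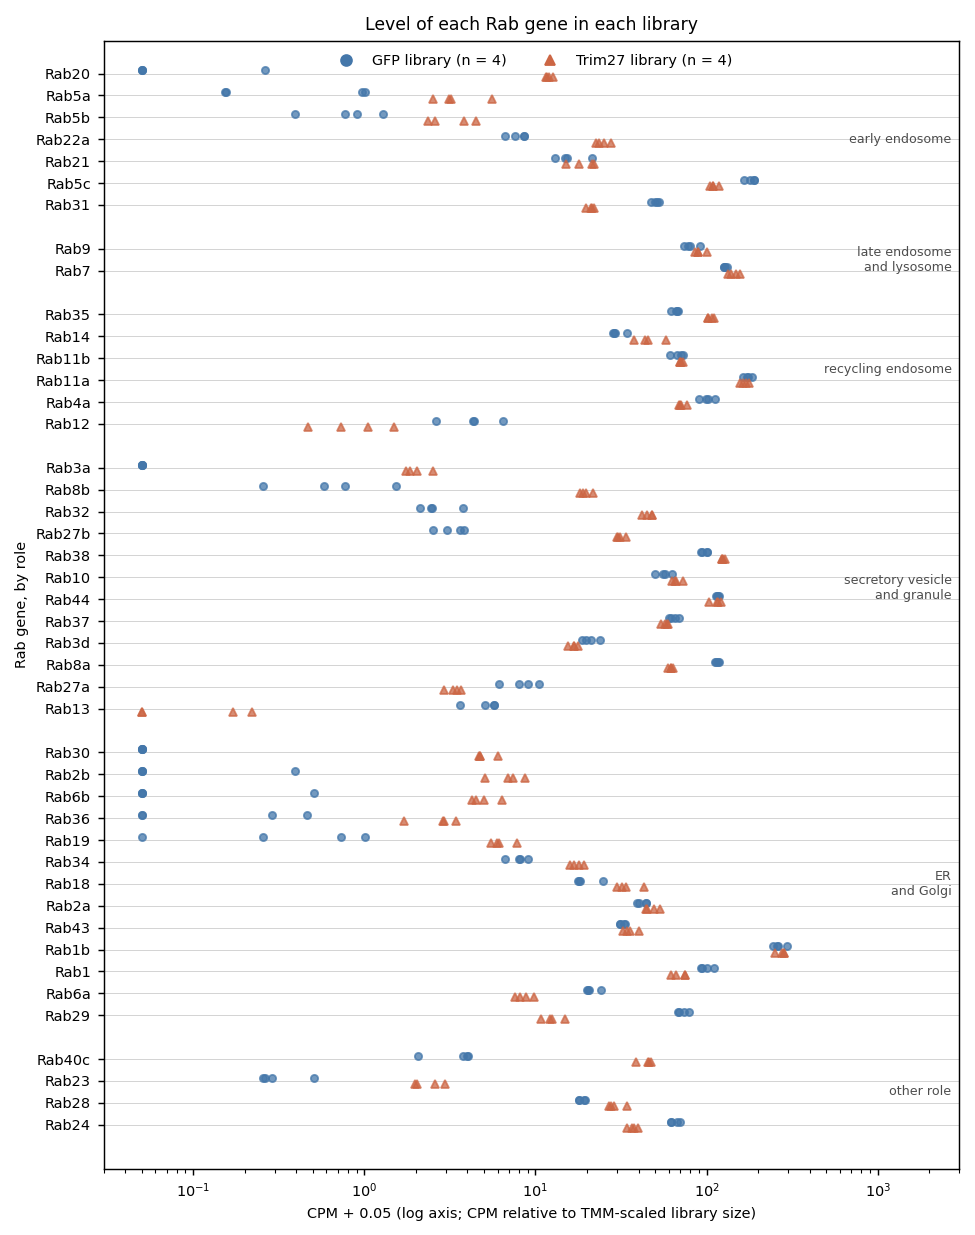
Level of each of the 44 Rab genes in each library, in CPM plus 0.05 on a log axis, with genes grouped by role on the vertical axis; circles are the 4 GFP libraries and triangles the 4 Trim27 libraries. Points at the left edge, at 0.05, are libraries with no count, as for Rab3a and Rab30 in every GFP library, and the libraries of the groups do not overlap for 24 genes higher and 13 lower with Trim27 virus.

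Among the 7 Rab genes of early endosomes, 4 rose, 2 fell and 1 passed in neither direction, and the members that fell, Rab5c and Rab31, had the highest levels per kilobase of transcript of this role in the GFP libraries. Over all genes tested, 47.5% rose and 38.0% fell, which is the background for the counts of this and every later role. Of the 4 that rose here, Rab20, Rab5a and Rab5b were members only with their Trim27 counts, so the membership rule in part set this count. Rab5 proteins drive the fusion of incoming vesicles with early endosomes, and Rab5c supplied nearly all Rab5 RNA in these cells, per kilobase. Rab5c stood at 189, 178, 189 and 165 CPM in the GFP libraries and at 105, 109, 117 and 109 CPM in the Trim27 libraries. Every Trim27 library lay below every GFP library (log2 fold change -0.71 ± 0.057 (SE), adjusted p = 1.57e-12). Its paralogs were scarce and rose, and neither had more than 5.54 CPM in any library. Rab5a had 0.914, 0.106, 0.957 and 0.103 CPM in the GFP libraries and 5.54, 2.47, 3.09 and 3.14 CPM in the Trim27 libraries. In Rab5a, every Trim27 library lay above every GFP library (log2 fold change 2.81 ± 0.45 (SE), adjusted p = 1.97e-06). For Rab5b the values were 0.343, 0.851, 0.717 and 1.23 CPM and 4.45, 3.79, 2.32 and 2.55 CPM (log2 fold change 2.03 ± 0.37 (SE), adjusted p = 8.71e-06). Of the 50-base stretches of the Rab5b transcript, 13% also occur in another gene, chiefly Gm13991, so that its counts are uncertain.

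Rab22a and Rab31 are close relatives that sort cargo between early endosomes and the trans-Golgi network, and they moved in opposite directions. Rab22a rose from 6.63, 8.51, 8.49 and 7.51 CPM in the GFP libraries to 23.5, 22.5, 25.1 and 27.5 CPM in the Trim27 libraries. Rab22a thus had no overlap between the groups, at a log2 fold change of 1.66 ± 0.13 (SE) and adjusted p = 9.90e-13. Rab31 fell from 51.1, 52.7, 47.6 and 49.97 CPM to 19.6, 22, 21.3 and 21 CPM. For Rab31 the groups did not overlap, with a log2 fold change of -1.26 ± 0.085 (SE) and adjusted p = 3.25e-14. Rab20, which acts on maturing phagosomes and is known from macrophages, had 2 counts over the GFP libraries, both in library 2, and 753 over the Trim27 libraries, where its level was 11.6, 12.6, 11.9 and 11.46 CPM. The ratio of its levels was 216 with a 95% exact counting interval of 59.6 to 1788. An opposite-strand transcript, E230013L22Rik, overlaps 25.6% of its exon bases, and this type of library does not mark the strand. Beside this rise, the macrophage list of 10 genes summed to 34.8 to 39.7 CPM in the GFP libraries and 17.5 to 21 CPM in the Trim27 libraries. Of that list, 6 genes, C1qa and Mrc1 among them, were at 0 in all libraries, Emr1 was at 0 in the GFP libraries and 10.8 CPM in the Trim27 libraries, and Csf1r went from 33.3 to 2.79 CPM. The part of such cells in the Rab20 result was not tested. Rab21, which binds integrins on their way into the cell, had 15.3, 14.8, 12.9 and 21.5 CPM and 21.8, 18, 15 and 21.3 CPM, with overlapping groups (log2 fold change 0.23 ± 0.15 (SE), adjusted p = 0.143). This difference passed the threshold without GFP library 4 (log2 fold change 0.40) and with library size alone (0.53), and it turned negative with the trend with transcript length removed (-0.25).

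Both late endosomal members showed small rises, and neither call held in every fit that left out 1 library. Rab7, which takes late endosomes to fusion with lysosomes, had 127, 128, 126 and 132 CPM in the GFP libraries and 156, 138, 134 and 148 CPM in the Trim27 libraries (log2 fold change 0.17 ± 0.057 (SE), adjusted p = 0.00799), with no overlap. Rab9, which returns receptors from late endosomes to the Golgi, went from 80.7 ± 7.44 to 90.8 ± 6.24 CPM (log2 fold change 0.17 ± 0.069 (SE), adjusted p = 0.0231), and its groups overlapped. The call for Rab7 was lost without Trim27 library 1 (log2 fold change 0.094) and without Trim27 library 4 (0.13), and once the trend with transcript length was removed the difference was 0.0023 and not called. The call for Rab9 was lost without GFP library 3 (0.15), GFP library 4 (0.13), Trim27 library 1 (0.091), Trim27 library 2 (0.15) or Trim27 library 3 (0.15). Stretches of 50 bases shared with the pseudogene copies Rab7-ps1 and Rab9b-ps1 make up 14.5% of the Rab7 transcript and 7.87% of that of Rab9.

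The 6 Rab genes of recycling endosomes were divided, with 2 that rose, 2 that fell and 2 that passed in neither direction. Of those that fell, Rab12 was a member only with its GFP counts. Rab11a and Rab11b, which carry cargo from the perinuclear recycling compartment back to the cell surface, were among the members that differed least. Rab11a, which held the most counts of this role, had 164, 171, 175 and 184 CPM in the GFP libraries and 177, 157, 169 and 163 CPM in the Trim27 libraries. For Rab11a the groups overlapped, with a log2 fold change of -0.061 ± 0.054 (SE) and adjusted p = 0.293. Rab11b had 70.4, 72.5, 61.2 and 67.2 CPM and 69.5, 72.3, 70.5 and 69.9 CPM. For Rab11b the groups overlapped, with a log2 fold change of 0.056 ± 0.067 (SE) and adjusted p = 0.433. With library size as the only scaling, the sign of the Rab11a difference turned and it passed the threshold upward (log2 fold change 0.24). It also passed upward in the fit of genes of at least 6 log2 CPM only. Without Trim27 library 1 (-0.12) and with the trend with transcript length removed (-0.26), Rab11a passed the threshold downward. Rab11b passed upward with library size alone (0.36) and among genes of at least 6 log2 CPM (0.29), and was at -0.59 with the length trend removed. Rab4a, which serves fast recycling straight from early endosomes, fell from 90.7, 99.7, 113 and 103 CPM to 70.4, 69.9, 76.5 and 68.9 CPM. In Rab4a, every Trim27 library lay below every GFP library (log2 fold change -0.50 ± 0.067 (SE), adjusted p = 5.33e-08). Its paralog Rab4b missed membership by 1 count and had 7, 7, 9 and 5 counts in the GFP libraries and 12, 20, 23 and 16 in the Trim27 libraries.

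Rab35, which pairs fast recycling with actin remodelling at the plasma membrane, rose from 66.5, 67.2, 68.2 and 61.8 CPM to 102, 102, 111 and 108 CPM. Rab35 thus had no overlap between the groups, at a log2 fold change of 0.68 ± 0.062 (SE) and adjusted p = 2.48e-11. Rab14, which links early endosomes with the Golgi, rose from 34.3, 29.2, 28.2 and 28.9 CPM to 57.7, 37.6, 45.5 and 43.5 CPM. For Rab14 the groups did not overlap, with a log2 fold change of 0.61 ± 0.11 (SE) and adjusted p = 8.64e-06. Among the GFP libraries, library 1 stood above the other GFP libraries for Rab14, and among the Trim27 libraries library 1 was also the highest, at 57.7 CPM. Rab12, which directs the transferrin receptor from recycling endosomes to degradation, fell from 4.38 ± 1.57 to 0.885 ± 0.44 CPM (log2 fold change -2.27 ± 0.35 (SE), adjusted p = 7.36e-07).

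Of the 12 secretory Rab genes, 6 rose, 5 fell and 1 passed in neither direction, and the paralogs Rab27a and Rab27b moved in opposite directions. Rab32, Rab3a and Rab8b, which rose, were members only with their Trim27 counts, and Rab13, which fell, only with its GFP counts. The membership rule thus in part set these counts. Rab27a and Rab27b dock secretory lysosomes and granules at the plasma membrane. Rab27b rose from 3.77, 2.98, 3.59 and 2.47 CPM in the GFP libraries to 33.9, 29.7, 31 and 30.3 CPM in the Trim27 libraries. In Rab27b, every Trim27 library lay above every GFP library (log2 fold change 3.29 ± 0.15 (SE), adjusted p = 1.90e-18). Rab27a fell from 10.4, 7.98, 6.1 and 8.95 CPM to 3.61, 3.25, 3.42 and 2.89 CPM. Rab27a thus had no overlap between the groups, at a log2 fold change of -1.34 ± 0.20 (SE) and adjusted p = 6.47e-07. Thus Rab27a, whose level per kilobase was the higher of the pair in every GFP library, had the lower level in every Trim27 library. Rab32 and Rab38 sort cargo into lysosome-related organelles such as melanosomes and platelet dense granules. Rab32 rose from 2.06, 2.45, 2.39 and 3.7 CPM to 47.7, 42.1, 44.8 and 48 CPM. For Rab32 the groups did not overlap, with a log2 fold change of 4.09 ± 0.14 (SE) and adjusted p = 9.80e-21. Rab38, already abundant, rose from 96.6 ± 4.44 to 125 ± 2.28 CPM (log2 fold change 0.37 ± 0.056 (SE), adjusted p = 6.93e-07), so that both members of this pair were higher, by very different amounts.

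Markers of other granule-bearing cells stand beside these genes. The mast cell and basophil list of 10 genes summed to 178 to 197 CPM in the GFP libraries and 263 to 276 CPM in the Trim27 libraries. Of its 6 tested genes, 5 rose and 1 fell, where 47.5% and 38.0% of all genes tested did. Prss34, Mcpt4 and Tpsab1 were at 0 in all libraries. The megakaryocyte list of 10 genes summed to 1188 to 1259 CPM and 999 to 1045 CPM, with 3 that rose and 4 that fell. Ms4a2, a chain of the IgE receptor of mast cells and basophils, moved from 0.105 to 6.93 CPM, while Hdc, which makes histamine and was the gene of that list that fell, went from 52.7 to 28.3 CPM. The megakaryocyte markers that fell were Pf4, Gp9, Gp1bb and Vwf, and those that rose were Itga2b, Itgb3 and Ppbp. Of the platelet granule proteins among them, Pf4 went from 538 to 253 CPM and Ppbp from 8.92 to 17.2 CPM, and the integrin chain Itga2b from 283 to 432 CPM. The part of either cell type in the changes of Rab27a, Rab27b, Rab32 and Rab38 was not tested.

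Rab8a and Rab8b take vesicles from the Golgi to the plasma membrane, and they too moved in opposite directions. Rab8a fell from 112, 116, 118 and 114 CPM to 62.3, 59.1, 62 and 63.8 CPM. In Rab8a, every Trim27 library lay below every GFP library (log2 fold change -0.90 ± 0.059 (SE), adjusted p = 2.01e-14). Rab8b rose from 1.49, 0.532, 0.717 and 0.206 CPM to 21.7, 18.8, 18.1 and 19.8 CPM. Rab8b thus had no overlap between the groups, at a log2 fold change of 4.75 ± 0.25 (SE) and adjusted p = 9.44e-17. Per kilobase, Rab8a nevertheless had the higher level of the pair in every library. The remaining granule Rabs had smaller differences, whose calls or directions depended on the scaling. Rab44, a large Rab known from granulocytes and mast cells, held the most counts of the secretory genes, with 115, 117, 118 and 113 CPM in the GFP libraries and 103, 121, 117 and 114 CPM in the Trim27 libraries. For Rab44 the groups overlapped, with a log2 fold change of -0.027 ± 0.059 (SE) and adjusted p = 0.677. The sign of so small a difference turned with DESeq2 size factors (log2 fold change 0.0010), upper-quartile factors (0.022) and library size alone (0.28), while with the trend with transcript length removed it passed the threshold downward (-0.45). In the fit of genes of at least 6 log2 CPM only, Rab44 passed upward. Rab37, found on secretory granules of mast cells and neutrophils, went from 69.2, 65.1, 60.6 and 61.6 CPM to 54, 57, 58.8 and 59.6 CPM. For Rab37 the groups did not overlap, with a log2 fold change of -0.16 ± 0.070 (SE) and adjusted p = 0.0317. This call was lost without GFP library 1 (log2 fold change -0.13) or GFP library 2 (-0.16), with DESeq2 size factors (-0.13) and with upper-quartile factors (-0.11), and its direction turned with library size alone (0.14). Rab3d, which is bound to zymogen and other secretory granules, went from 23.9, 19.6, 18.8 and 21.2 CPM to 16.7, 17.7, 16.7 and 15.4 CPM (log2 fold change -0.32 ± 0.11 (SE), adjusted p = 0.0101). The Rab3d call was also lost without GFP library 1 (-0.26) and with library size alone (-0.021), and without that library 3 secretory members fell in place of 5.

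Rab3a, the Rab of synaptic vesicles, was at 0 counts in every GFP library and had 2.47, 1.81, 1.99 and 1.7 CPM in the Trim27 libraries, at least 24.3-fold higher against a floor of 3 counts over the GFP group. Rab13, which acts in traffic to cell junctions, moved the other way, from 5.71, 5.64, 3.59 and 5.04 CPM to 0.12, 0, 0 and 0.17 CPM (log2 fold change -6.09 ± 0.50 (SE), adjusted p = 2.63e-12), with 4 counts left over the Trim27 libraries. Rab10, which brings Golgi and endosomal vesicles to the surface, rose from 56.3 ± 4.98 to 66.9 ± 4.32 CPM (log2 fold change 0.25 ± 0.074 (SE), adjusted p = 0.00268), and this direction turned once the trend with transcript length was removed (log2 fold change -0.13).

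Among the 13 Rab genes of the ER and Golgi, 8 rose, 3 fell and 2 passed in neither direction, and 5 of those that rose (Rab30, Rab2b, Rab6b, Rab36 and Rab19) were nearly absent from the GFP libraries. These 5 were members only with their Trim27 counts, so the membership rule in part set the number that rose. Rab1 proteins move vesicles from the ER to the Golgi, and Rab1b had the highest level per kilobase of transcript among all Rab genes in both groups. Rab1b had 293, 245, 263 and 256 CPM in the GFP libraries and 249.9, 283, 281 and 276 CPM in the Trim27 libraries (log2 fold change 0.045 ± 0.056 (SE), adjusted p = 0.456), with overlap. Its small difference changed sign without Trim27 library 2 (log2 fold change -0.0068) or 3 (-0.0033) and with the trend with transcript length removed (-0.058), and it passed upward with library size alone (0.35). Rab1, the gene also called Rab1a, fell from 94, 110.2, 93.1 and 100.4 CPM to 74.4, 66.6, 62 and 74.5 CPM (log2 fold change -0.52 ± 0.070 (SE), adjusted p = 7.29e-08), and its groups did not overlap.

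The largest fall among Rab genes with at least 100 counts in each group was that of Rab29, which brings the kinase Lrrk2 to the trans-Golgi network and to stressed lysosomes. Rab29 fell from 79.2, 68.7, 67.7 and 73.6 CPM to 12.5, 14.7, 10.7 and 12.1 CPM (log2 fold change -2.53 ± 0.096 (SE), adjusted p = 6.37e-20). It was the only member of at least 4 log2 CPM on average that fell by more than 2 on the log2 scale. Rab6 proteins drive transport within and back through the Golgi. Rab6a fell from 20.3, 20.5, 24 and 20.05 CPM to 9.81, 8.07, 8.78 and 7.55 CPM. In Rab6a, every Trim27 library lay below every GFP library (log2 fold change -1.30 ± 0.13 (SE), adjusted p = 2.55e-10). An opposite-strand gene, Mrpl48, overlaps 19% of the exon bases of Rab6a and itself fell by 0.56 on the log2 scale, so reads of the shared part cannot be told apart. Rab6b, a paralog known from neurons, had 4 counts over the GFP libraries, all in library 1, and 4.21, 4.94, 4.42 and 6.37 CPM in the Trim27 libraries (log2 fold change 5.36 ± 0.52 (SE), adjusted p = 9.86e-11).

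Rab34, a Golgi Rab that also places lysosomes and helps to form the primary cilium, rose from 8.11, 7.98, 6.58 and 8.95 CPM to 17.9, 19.2, 15.8 and 16.7 CPM. Rab34 thus had no overlap between the groups, at a log2 fold change of 1.13 ± 0.14 (SE) and adjusted p = 1.48e-08. Rab18, which joins the ER to lipid droplets, rose from 18.2, 24.8, 17.7 and 18 CPM to 43.1, 33.5, 29.8 and 31.9 CPM (log2 fold change 0.81 ± 0.12 (SE), adjusted p = 8.52e-07), and once the trend with transcript length was removed the call was lost (0.14). Rab2 proteins act between the ER and the Golgi, and Rab2a went from 40.3, 44.2, 44.2 and 39.1 CPM to 49.2, 44.3, 44.6 and 53.1 CPM. For Rab2a the groups did not overlap, with a log2 fold change of 0.19 ± 0.082 (SE) and adjusted p = 0.0367. The Rab2a call was lost without GFP library 1 (log2 fold change 0.16), GFP library 4 (0.15), or any of Trim27 libraries 1 (0.14), 2 (0.19), 3 (0.18) and 4 (0.11), and also with the trend with transcript length removed (0.027). Rab2b had 3 counts over the GFP libraries and 8.66, 4.996, 6.85 and 7.3 CPM in the Trim27 libraries, a ratio of 83.6 with a 95% exact counting interval of 28.4 to 407. Transcripts of the opposite strand overlap Rab2b, with 59.3% of its exon bases under Gm43766 and 4.68% under Tox4, which went from 2.59 to 14.6 CPM.

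Rab30, a Golgi Rab, was at 0 counts in every GFP library and had 4.69, 4.7, 4.64 and 6.03 CPM in the Trim27 libraries, at least 59.5-fold higher against the floor of 3 counts over the group. Rab36 rose from 0.163 ± 0.2005 to 2.69 ± 0.728 CPM (log2 fold change 3.93 ± 0.55 (SE), adjusted p = 1.32e-07) and Rab19 from 0.462 ± 0.437 to 6.28 ± 0.988 CPM (log2 fold change 3.80 ± 0.38 (SE), adjusted p = 3.02e-10). Rab43, which acts in ER to Golgi transport, had 32 ± 1.2 CPM and 35.6 ± 3.26 CPM (log2 fold change 0.15 ± 0.089 (SE), adjusted p = 0.106). This difference passed upward with upper-quartile factors (log2 fold change 0.20) and library size alone (0.46) and turned negative with the length trend removed (-0.32). As 90.3% of its 50-base stretches also lie in the read-through gene model Gm45140, its counts are uncertain.

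Of the 4 members with other roles, 3 rose and 1 fell. Among those that rose, Rab23 was a member only with its Trim27 counts. Rab40c carries a SOCS box and joins a Cullin-5 ubiquitin ligase. Rab40c rose from 3.999, 2.02, 3.71 and 3.91 CPM to 38.6, 47.1, 46 and 45.7 CPM (log2 fold change 3.70 ± 0.15 (SE), adjusted p = 1.43e-19), one of the largest rises among members of at least 3 log2 CPM on average. Rab28, which acts at cilia, rose from 19.5, 18, 17.8 and 19.1 CPM to 34.1, 27.5, 26.8 and 28.9 CPM. In Rab28, every Trim27 library lay above every GFP library (log2 fold change 0.65 ± 0.11 (SE), adjusted p = 1.54e-06). Rab23, a brake on Hedgehog signalling, rose from 0.279 ± 0.12 to 2.35 ± 0.477 CPM (log2 fold change 3.04 ± 0.44 (SE), adjusted p = 2.99e-07). Rab24, which is linked to autophagy, fell from 69.9, 61.9, 67.4 and 61.8 CPM to 34.4, 39.9, 36.8 and 37.7 CPM. Rab24 thus had no overlap between the groups, at a log2 fold change of -0.81 ± 0.076 (SE) and adjusted p = 4.99e-11. The opposite-strand gene Prelid1 overlaps 62.4% of the exon bases of Rab24 and fell from 1159.9 to 644 CPM (log2 fold change -0.85), and reads of the shared part cannot be told apart without the strand.

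**Figure D2:**
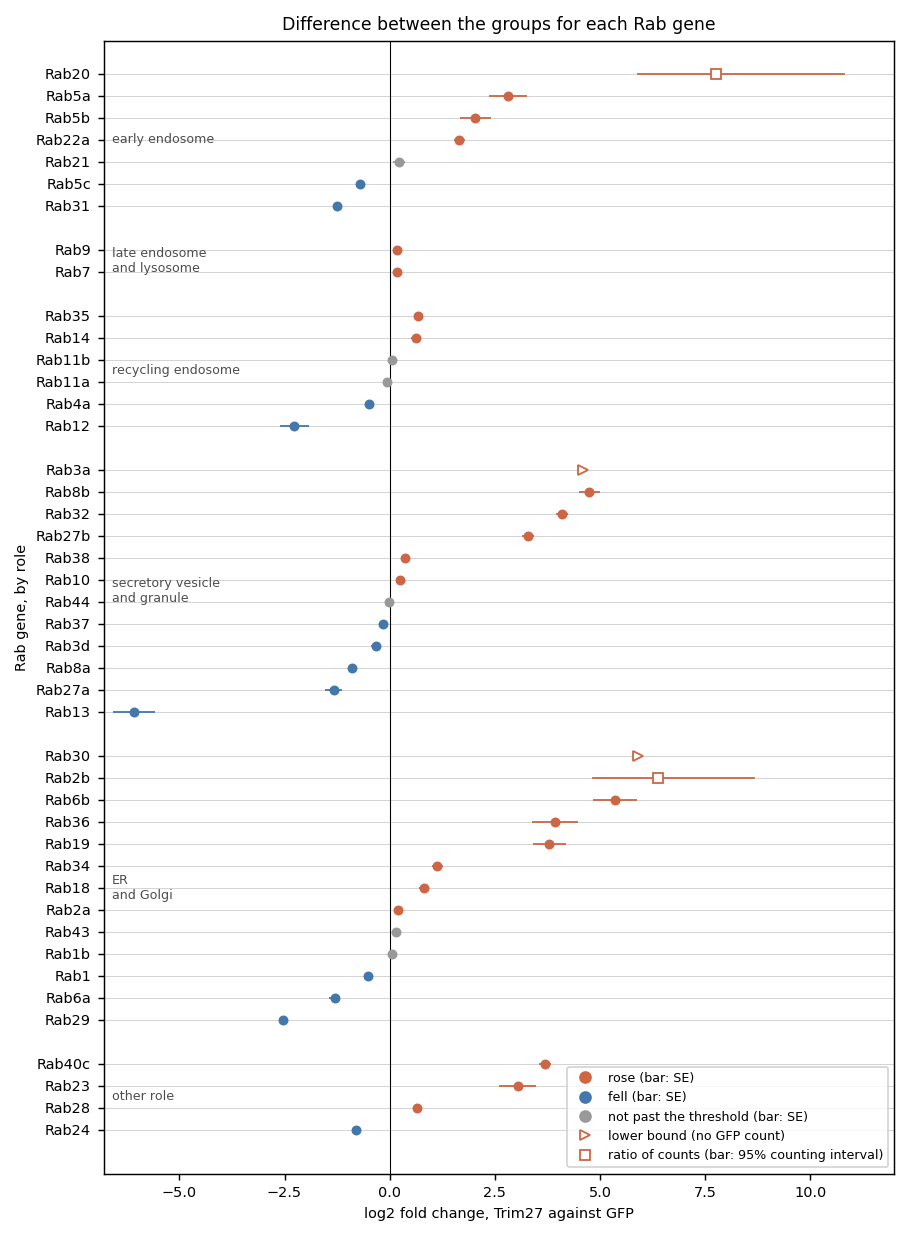
Log2 fold change of each Rab gene, Trim27 against GFP libraries, by role; filled circles are fitted values with their standard errors, open squares ratios of counts with 95% counting intervals (Rab20 and Rab2b), and open triangles lower bounds for genes with no GFP count (Rab3a and Rab30). Members of each role lie on both sides of 0 except the late endosomal pair, from Rab13 at -6.09 to Rab20 with a ratio of 216.

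Expressed per kilobase of transcript, which allows genes to be set against each other, Rab1b led both groups, with 138 ± 10.9 CPM per kilobase in the GFP libraries and 142 ± 8.1 in the Trim27 libraries. Next in the GFP libraries came Rab5c with 91.8 ± 5.83, then Rab11a with 74.3 ± 3.54 and Rab4a with 71.4 ± 6.33 CPM per kilobase, the last pair within their SDs of each other. In the Trim27 libraries the order was Rab38 with 79.1 ± 1.45, Rab11a with 71.2 ± 3.57, Rab7 with 66.6 ± 4.56 and Rab9 with 62.7 ± 4.31 CPM per kilobase, of which the last 3 lay within their SDs of a neighbour. By role, the ER and Golgi members took the largest part of this total, 29.4% ± 0.965 in the GFP libraries and 26.2% ± 0.781 in the Trim27 libraries. The early endosomal part was 12% ± 0.428 and 8.997% ± 0.225, and the secretory part 18.2% ± 0.557 and 22.1% ± 0.203. For the late endosomal part the values were 12.4% ± 0.544 and 14.4% ± 0.8286, and for the recycling part 20.7% ± 0.953 and 20.8% ± 0.741. The libraries of the groups did not overlap in the early endosomal, late endosomal, secretory and ER and Golgi shares, and they overlapped in the recycling share; no test was run on shares.

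The shares of paralogs in their sets are a description only: Rab5a, Rab5b, Rab8b, Rab2b, Rab6b, Rab32 and Rab3a were members only with their Trim27 counts, so that the membership rule in part set the direction of their shares. Rab27b made up 15.4% ± 4.23 of Rab27 RNA per kilobase in the GFP libraries and 81.4% ± 1.01 in the Trim27 libraries (SD, n = 4), the only set of those compared whose leading gene changed. Rab8b went from 0.613% ± 0.462 to 23.3% ± 1.32 of the Rab8 set, and Rab5a and Rab5b from 0.229% ± 0.207 and 0.275% ± 0.145 to 2.59% ± 1.03 and 1.78% ± 0.594 of the Rab5 set. In the Rab11 set, Rab11b had 13% ± 1.17 and 14% ± 0.781, and Rab1, the minor gene beside Rab1b, went from 20.4% ± 2.37 to 14.7% ± 1.72. Another 5 pairs were added after their values had been seen. In these, Rab6b went from 0.355% ± 0.711 to 27.3% ± 5.84 of the Rab6 pair, Rab2b from 0.155% ± 0.31 to 9.6% ± 1.6 of the Rab2 pair, and Rab3a from 0 to 22.9% ± 2.9 beside Rab3d. Rab32 went from 1.96% ± 0.454 to 21.2% ± 0.885 beside Rab38, and Rab22a from 6.99% ± 0.859 to 36.3% ± 2.31 beside Rab31.

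**Figure D3:**
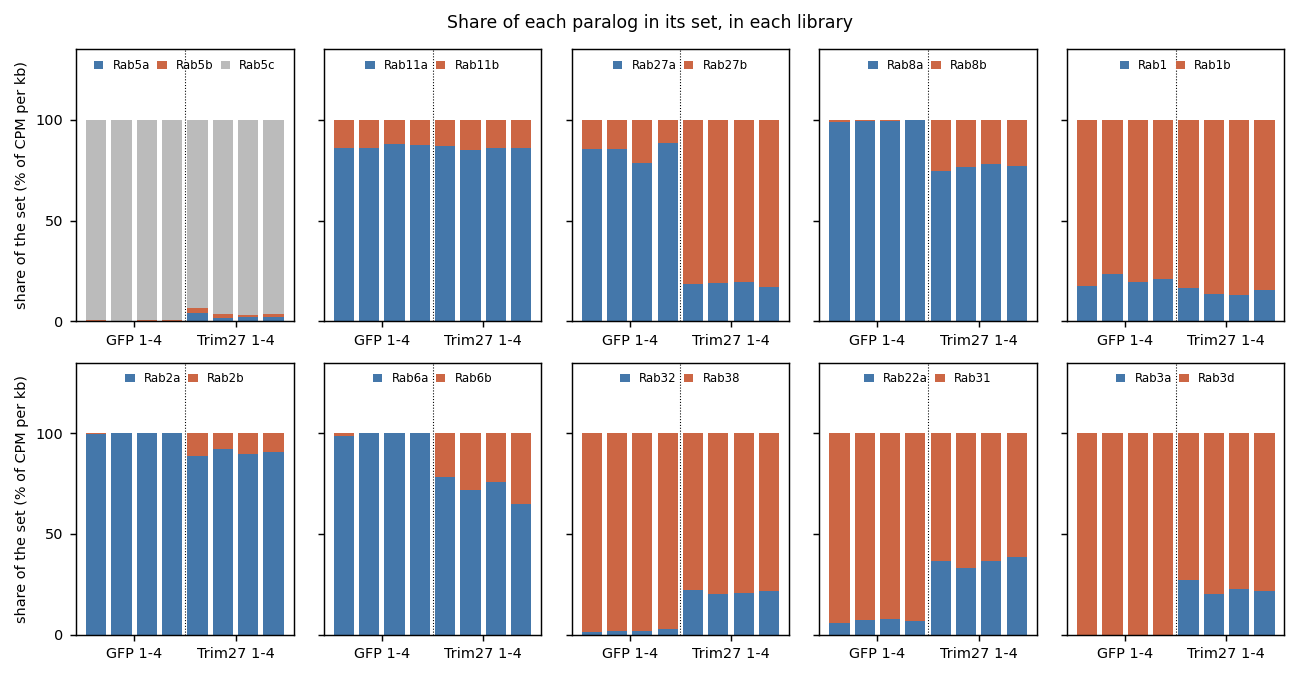
Share of each paralog in the summed CPM per kilobase of its set, in percent, for the 4 GFP and 4 Trim27 libraries (1 stacked bar each). The Rab27 panel passes from mostly Rab27a to mostly Rab27b (15.4% to 81.4%), while the Rab11 panel stays close to 87% Rab11a.

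The share of Rab genes that rose was larger at lower mean levels, as it was over all genes, but the membership rule in part set this split. Of the 16 members with a mean under 4 log2 CPM over the libraries, 12 rose and 4 fell, where 56.5% and 28.3% of all such genes did. Of the 16 members from 4 to 6 log2 CPM, 9 rose and 5 fell (47.4% and 38% of all such genes). Of the 12 most abundant members, at 6 log2 CPM or more, 4 rose (Rab7, Rab9, Rab35 and Rab38), 4 fell (Rab1, Rab4a, Rab5c and Rab8a) and 4 passed in neither direction (Rab1b, Rab11a, Rab11b and Rab44), where 30.7% of all such genes rose and 56.3% fell. The median log2 fold change of the members was 3.42 in the lowest class, 0.24 in the middle class and 0.0091 in the highest, against 0.96, 0.12 and -0.23 over all genes. In the lowest class, all that rose except Rab34 were members only with their Trim27 counts. Rab12 and Rab13, which fell in that class, were members only with their GFP counts. Rab32 in the middle class was also a member only with its Trim27 counts. The split is therefore not read as a property of the family.

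**Figure D4:**
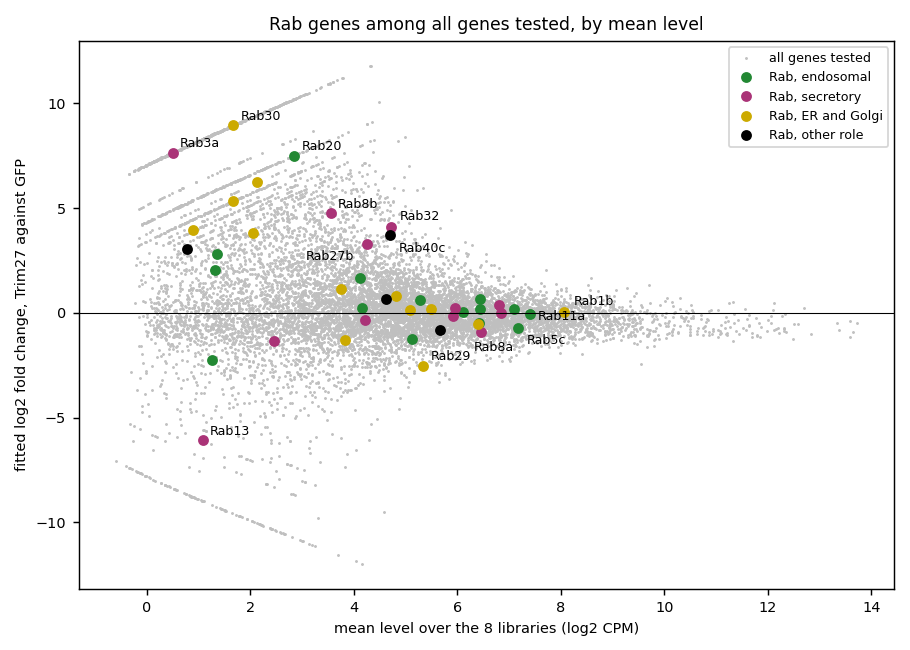
Fitted log2 fold change, Trim27 against GFP, against the mean level over the 8 libraries in log2 CPM, for all 11040 genes tested (grey points) and the 44 Rab genes (coloured circles by role). Rab genes spread widely at low levels and less at high levels. At 6 log2 CPM or more their median was 0.0091 and their SD 0.46, with 4 that rose and 4 that fell. Genes with no count in a group form the slanted lines at the edges, where the fitted value depends on the prior count and is no measured size.

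The genes that lipidate, load, switch off and read Rab proteins were followed in lists chosen with earlier results of these data known. Of the 6 tested genes for prenylation and delivery (of 8 listed), 3 rose and 3 fell, with a median log2 fold change of -0.069. Beside this, 85.5% of all genes tested were called, 47.5% upward and 38.0% downward. Rabggtb, the catalytic subunit of Rab geranylgeranyl transferase, fell from 154, 162, 149 and 144 CPM to 106, 102, 99.1 and 101 CPM. For Rabggtb the groups did not overlap, with a log2 fold change of -0.58 ± 0.056 (SE) and adjusted p = 8.61e-11. Its partner Rabggta had a log2 fold change of 0.41 ± 0.097 (adjusted p = 2.78e-04), and so the subunits of this enzyme went in opposite directions. Rabac1, a prenylated Rab acceptor, went from 228 ± 13.8 to 162 ± 13.2 CPM (adjusted p = 8.40e-09) and Rabif, a chaperone of nucleotide-free Rabs, from 49.3 ± 4.34 to 34.3 ± 2.61 CPM (adjusted p = 1.88e-06), and both fell.

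Of the 26 tested exchange factors (of 34 listed), 17 rose, 5 fell and 4 passed in neither direction, with a median of 0.86. Over all genes tested, 47.5% rose and 38.0% fell, with a median of 0.14. Gapvd1, an exchange factor for Rab5, rose from 6.09 ± 1.35 to 46.3 ± 2.58 CPM (log2 fold change 2.93 ± 0.12 (SE), adjusted p = 6.67e-19). Madd, which loads Rab3 and Rab27 proteins, rose from 4.42 ± 0.631 to 34.9 ± 4.4 CPM (log2 fold change 2.97 ± 0.14 (SE), adjusted p = 7.82e-18). Rab3il1, which acts on Rab8 proteins, fell from 38.1 ± 1.33 to 5.19 ± 0.902 CPM (log2 fold change -2.86 ± 0.12 (SE), adjusted p = 1.60e-18). None of these 3 genes had overlapping groups. Of the 30 tested GTPase-activating proteins (of 37 listed), 14 rose, 11 fell and 5 passed in neither direction, with a median of 0.20. Tbc1d24 rose from 0.158 ± 0.244 to 21.7 ± 1.83 CPM (log2 fold change 6.96 ± 0.32 (SE), adjusted p = 3.73e-18). The other three that the smallest p-values chose fell: Evi5l from 33 ± 1.57 to 4.32 ± 0.953 CPM, Sgsm2 from 35.5 ± 2.24 to 6.51 ± 1.18 CPM, and Tbc1d2, which acts on Rab7, from 46.7 ± 2.59 to 12.4 ± 1.92 CPM (log2 fold changes -2.91, -2.44 and -1.91).

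Of the 21 tested effectors (of 35 listed), 14 rose, 4 fell and 3 passed in neither direction, with a median of 1.28. Beside them, 47.5% of all genes tested rose and 38.0% fell, with a median of 0.14. Plekhm1, which binds Rab7 and leads late endosomes to lysosomes, fell from 88.9, 99.2, 88.5 and 93.4 CPM to 13.8, 13.8, 11.8 and 10.7 CPM. In Plekhm1, every Trim27 library lay below every GFP library (log2 fold change -2.87 ± 0.087 (SE), adjusted p = 7.17e-22). Bicd2, which links Rab6 vesicles to dynein, rose from 0.501 ± 0.332 to 17.3 ± 1.96 CPM (log2 fold change 5.09 ± 0.26 (SE), adjusted p = 7.67e-17). Zfyve20, an effector of Rab5 and Rab4 also called rabenosyn-5, rose from 0.223 ± 0.323 to 13.5 ± 0.874 CPM (log2 fold change 5.87 ± 0.35 (SE), adjusted p = 2.07e-15). Mical1, an actin-oxidising effector of Rab35, rose from 7.99 ± 0.942 to 36.3 ± 5.01 CPM (log2 fold change 2.19 ± 0.13 (SE), adjusted p = 9.99e-16). Of the Rab genes these effectors read, Rab6a fell and Rab6b rose beside the rise of Bicd2, and Rab7 had a small rise beside the fall of Plekhm1. Beside the rise of Zfyve20, Rab5c and Rab4a fell while the scarce Rab5a and Rab5b rose, and Rab35 rose with Mical1. Beside these lists, 11 of 21 tested Arf, Arl and Sar GTPases rose and 8 fell, against the 47.5% and 38.0% of all genes, and no difference between lists was tested.

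**Figure D5:**
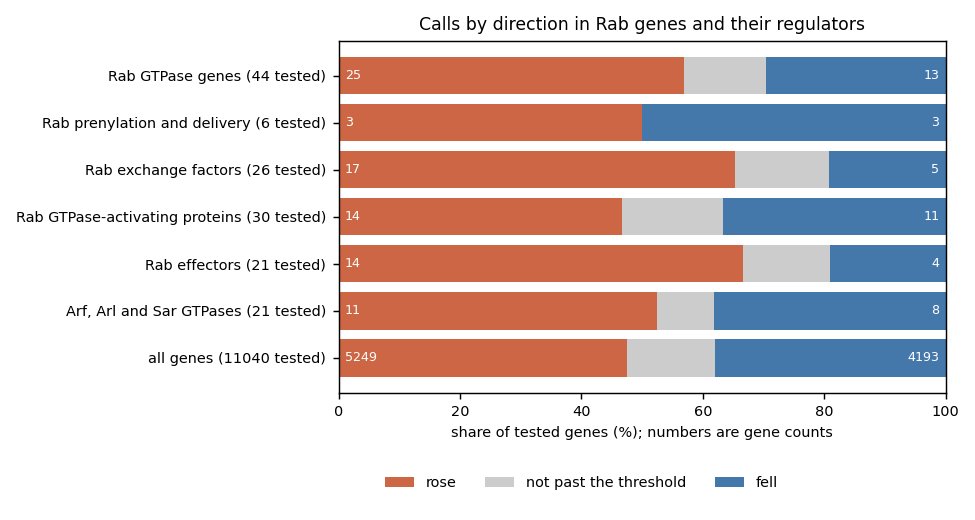
Share of tested genes that rose, fell or did not pass the threshold with Trim27 virus, in percent, for the Rab genes, their regulator lists, the Arf, Arl and Sar GTPases and all genes; the numbers in the bars are gene counts. Rab genes rose in 56.8% and fell in 29.5% of cases, against 47.5% and 38.0% of all genes. The membership rule in part set the Rab shares, since 12 that rose were members only with their Trim27 counts. Likewise 2 that fell were members only with their GFP counts. Among the 30 with at least 100 counts in each group, 13 rose and 11 fell.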

How the data were processed

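RNA-seq counts per gene for 8 libraries were deposited by the authors as raw counts; bcl2fastq, HISAT2, featureCounts and the mouse build NCBIM37 are named in the submitters' processing notes, without versions or strand setting. Per the labels' protocols, RNA was reverse transcribed into double-stranded DNA and made into libraries with Nextera XT, a kit that does not mark the strand. Counts were fitted as deposited with edgeR 4.0.16 in R 4.3.3 (TMM scaling, filterByExpr with a minimum count of 10, robust quasi-likelihood test, 2-sided), over all 11040 genes that passed the filter; CPM are relative to TMM-scaled library sizes. The standard error is the log2 fold change divided by the square root of F. Levels per kilobase used the longest protein-coding transcript of the GENCODE M21 basic set (GRCm38), a build other than the authors'. With no GFP count a fold is a bound against 3 counts over the group; with 1 to 3 counts a ratio with an exact 95% interval is given. Per role, library values are printed for up to 3 largest rises and falls of at least 3 log2 CPM without overlap, the most abundant member and paralog sets, and per regulator list up to 4 genes with the smallest p; other genes were chosen after their values were seen, and some genes of this rule are not reported here. Members, roles and lists were chosen with earlier results of these data known. DESeq2 1.42.0 and limma 3.58.1 served as alternatives.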

Additional observations from a re-analysis of the deposited data

Results flagged for a closer look

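In 86 sets of 4 libraries (each Rab gene in each group, where the values were not all equal), 10 held a library far from the rest by Dixon's test. The chance rate of about 1 in 20 holds for continuous values with a normal spread. A set with counts in only 1 library, as for Rab20, Rab2b and Rab6b, is always flagged. The number flagged is therefore not read as an excess over that rate. In the GFP group, Rab14 stood at 34.3 CPM in library 1 against 28.2 to 29.2 in the others, Rab18 at 24.8 in library 2 against 17.7 to 18.2, and Rab6a at 24 in library 3 against 20.05 to 20.5. Rab40c was low in GFP library 2, at 2.02 CPM against 3.71 to 3.999, and low in Trim27 library 1, at 38.6 CPM against 45.7 to 47.1. Rab30 was high in Trim27 library 4, at 6.03 CPM against 4.64 to 4.7. The others are values from few counts in GFP libraries: Rab20 at 0.213 CPM in library 2 (2 counts) with the others at 0, Rab2b at 0.343 CPM in library 1 (3 counts) with the others at 0, Rab6b at 0.457 CPM in library 1 (4 counts) with the others at 0, and Rab23 at 0.457 CPM in library 1 (4 counts) against 0.206 to 0.239 CPM.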

How the results depend on the processing

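Under 21 alternatives, 26 of 44 Rab genes kept their direction and side of the threshold in every alternative that tested them, and 18 changed in at least 1. The size of rises from few GFP counts is limited by depth. With at least 10 CPM asked for in 4 libraries, 16 Rab genes rose (2 early endosomal, 3 ER and Golgi), 1 recycling and 3 secretory genes fell, and 8 effectors rose, on fewer genes tested. A fit of genes of at least 6 log2 CPM only, with 12 members, which moved the median of all such genes to 0.00010, had 8 that rose and 4 that fell: early endosomal 0 and 1, recycling 1 that fell, secretory 2 and 1, ER and Golgi 1 and 1, other roles 0 and 0, prenylation 1 that rose, exchange factors 2 and 0, GTPase-activating proteins 1 and 1, effectors 1 and 1. Against a fold change of 1.5 (glmTreat), 0 late endosomal genes rose, 1 recycling gene rose and 1 fell, 3 secretory genes fell, 1 prenylation gene rose and 0 fell, and 7 GTPase-activating proteins fell. With library size alone, 4 recycling genes rose, 3 secretory genes and 7 GTPase-activating proteins fell. With the trend with transcript length removed, 1 late endosomal gene rose, 4 recycling genes fell, 1 prenylation gene rose and 8 exchange factors fell, and the log2 fold changes of Rab21 (-0.25), Rab11b (-0.59), Rab10 (-0.13), Rab1b (-0.058) and Rab43 (-0.32) changed sign; apart from the construction of each alternative, the cause was not tested. Rab11a changed sign with library size alone (0.24), among abundant genes (0.18) and with a length trend fitted on abundant genes, an alternative chosen after seeing the data (0.024), Rab37 with library size alone (0.14), Rab44 with DESeq2 size factors (0.0010), upper-quartile factors (0.022), library size alone (0.28), no filter (0.0027), abundant genes only (0.21) and DESeq2's Wald test (0.010), and Rab1b without Trim27 library 2 (-0.0068) or 3 (-0.0033), with 0.096 as its highest such value. Leaving out 1 library at a time gave 22 to 25 Rab genes that rose and 11 to 14 that fell, with 0 to 2 late endosomal genes that rose and 3 to 5 secretory genes that fell.

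No pairing of the libraries by replicate number was seen, as the correlations of same-numbered deviations were -0.0768 to 0.0311. These values cannot exclude a pairing. With the number as a block, 24 Rab genes rose and 12 fell, and 5133 and 4027 of all genes, and the calls of Rab37 (-0.16) and Rab2a (0.18) were lost. Trim27 library 1 differed most from its own group. Over the counts of all tested genes, its chi-square per degree of freedom was 6.71 to 11.2 against the other Trim27 libraries. Those libraries gave 2.64 to 3.6 among themselves, and the GFP libraries 2.63 to 4.83.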
